A study of Mus musculus with 20 samples.

Results

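The 10 genes described here, Trem2, Tyrobp, Clec7a, Axl, Itgax, Lpl, Cst7, Spp1, Gpnmb and Cd68, are known for their rise in damage-associated microglia. They were found by symbol among the 46517 genes of the deposited table, through the Ensembl identifier of each row without its version, and all 10 had 1 row each. Their levels were followed in the optic nerve and corpus callosum of Zdhhc9 knockout (KO) and wild-type (WT) mice.

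Microglia are the resident macrophages of the central nervous system. Around damaged myelin, dying neurons or protein deposits they lower their homeostatic genes and raise a set of genes for lipid uptake, lysosomes and phagocytosis, and in mouse models the later steps of that change need the lipid-sensing receptor Trem2 and its signalling adaptor Tyrobp (DAP12). The other members act as receptors (Clec7a, or dectin-1, and the receptor tyrosine kinase Axl), as the integrin subunit CD11c (Itgax), in lipoprotein breakdown (Lpl, lipoprotein lipase), in the endosomes and lysosomes (Cst7, or cystatin F, an inhibitor of cathepsins, and Cd68, a glycoprotein of macrophage lysosomes), as a secreted matrix protein (Spp1, osteopontin) and as a transmembrane glycoprotein of phagocytes (Gpnmb). Macrophages of the meninges and of blood vessels make several of them too, and Axl, Lpl and Spp1 are also made by cells outside the myeloid lineage.

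Messenger RNA of whole dissected tissue was sequenced in 20 libraries: 5 of KO optic nerve, 4 of WT optic nerve, 6 of KO corpus callosum and 5 of WT corpus callosum. Zdhhc9, on the X chromosome, encodes a palmitoyl acyltransferase; the sample labels call the mutant mice knockout and the series text calls them a knockdown, and neither the age, sex and strain of the mice nor the removed stretch of the gene is stated in the labels or files. The labels do not say that each number in a library name stands for a separate animal, so the p-values measure the spread between these libraries. Library totals ran between 18837907 and 25866142 estimated counts in KO nerve, 22299837 and 26095622 in WT nerve, 17333746 and 25028817 in KO callosum, and 15401130 and 25375187 in WT callosum. All levels below are CPM, that is counts scaled to the size of the library, here with TMM factors over the 20 libraries, and every error is an SD over the libraries of a group unless it is called a standard error (SE). Zdhhc9 itself lay between 35.1 and 51.4 CPM in KO nerve, against 115 to 150 CPM in WT nerve, and between 40.8 and 56.0 CPM in KO callosum, against 153 to 201 CPM in WT callosum, so the groups did not overlap in either tissue and the KO libraries still held counts of the gene.

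The promoters of the members are shown because the 10 genes are often raised together. RefSeq (GRCm38.p6) gave windows of 300 bases, 250 before a start of the gene and 50 after it, for 8 of the 10 members. Spp1 and Clec7a had separate windows for alternative starts, and a member was counted if any of its windows held a motif. Tyrobp and Lpl had no window in the table used. The motif TGANTCA, a loose form of the site of AP-1 factors, was searched on both strands and was found in 5 of these 8 members, against 7.81% of all 32851 promoter windows. Its centre base was C or G in Itgax, Gpnmb and Cd68, A in Trem2 and T in Cst7. The sequences of those 5 follow, read 5' to 3' on the strand of the gene, with the motif in capitals.

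Trem2, chr17:48346151-48346450, + strand: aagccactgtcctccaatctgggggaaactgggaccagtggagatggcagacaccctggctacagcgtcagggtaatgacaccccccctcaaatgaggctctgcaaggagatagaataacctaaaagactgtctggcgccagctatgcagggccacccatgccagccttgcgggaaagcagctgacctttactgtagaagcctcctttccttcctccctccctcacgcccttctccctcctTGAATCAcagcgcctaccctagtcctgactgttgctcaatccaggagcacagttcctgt

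Cst7, chr2:150570165-150570464, + strand: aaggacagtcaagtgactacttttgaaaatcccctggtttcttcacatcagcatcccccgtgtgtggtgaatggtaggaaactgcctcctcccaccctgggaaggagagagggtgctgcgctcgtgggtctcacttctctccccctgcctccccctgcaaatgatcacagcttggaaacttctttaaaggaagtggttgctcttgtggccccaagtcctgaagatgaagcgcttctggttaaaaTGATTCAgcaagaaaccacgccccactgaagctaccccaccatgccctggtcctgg

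Itgax, chr7:128129300-128129599, + strand: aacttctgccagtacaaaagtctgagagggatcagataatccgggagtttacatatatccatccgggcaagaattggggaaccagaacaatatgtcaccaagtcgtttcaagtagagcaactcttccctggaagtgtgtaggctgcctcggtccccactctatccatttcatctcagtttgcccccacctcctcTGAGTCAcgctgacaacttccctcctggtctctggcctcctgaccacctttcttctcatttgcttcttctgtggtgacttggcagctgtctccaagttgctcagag

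Gpnmb, chr6:49036268-49036567, + strand: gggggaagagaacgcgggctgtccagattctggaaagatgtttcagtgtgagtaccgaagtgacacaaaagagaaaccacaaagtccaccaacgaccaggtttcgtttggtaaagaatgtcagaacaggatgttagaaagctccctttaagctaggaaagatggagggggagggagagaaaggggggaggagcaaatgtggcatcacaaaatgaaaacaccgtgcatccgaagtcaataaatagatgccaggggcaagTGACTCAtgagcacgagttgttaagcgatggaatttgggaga

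Cd68, chr11:69666121-69666420, - strand: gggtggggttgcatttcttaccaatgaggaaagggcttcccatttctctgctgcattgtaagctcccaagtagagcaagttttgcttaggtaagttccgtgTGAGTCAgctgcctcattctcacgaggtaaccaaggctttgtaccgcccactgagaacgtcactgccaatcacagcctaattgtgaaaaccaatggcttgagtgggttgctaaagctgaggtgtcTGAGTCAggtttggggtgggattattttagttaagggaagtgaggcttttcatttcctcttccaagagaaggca

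The motif began 6 bases before the first base of the gene in Cst7, 9 bases before it in Trem2 and 56 bases before it in Itgax. In Cd68 it occurred at 149 and 24 bases before the start, and in Gpnmb it lay 8 bases past the first base of the gene, by the RefSeq starts used for these windows. The motif GAGGAAG, a form of the site of the myeloid factor PU.1, was present in Axl, Spp1 and Trem2, which is 3 of 8 members against 13.6% of all windows. The shorter ETS core GGAAGT was present in Cd68, Cst7, Itgax and Spp1, against 23.8% of all windows. The E-box CACGTG and the sequence TCATGTG, both bound by MiT and TFE factors, were in 0 of the 8 members, against 7.15% and 3.77% of all windows. None of these motif instances in the printed windows overlapped the capital letters, and a match is a match of letters only.

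In the corpus callosum, KO libraries had lower mean levels than WT libraries for 8 of the 9 members with enough counts to test, led by Itgax, Clec7a, Tyrobp and Trem2, and a higher mean level of Lpl. None of the 9 passed the test: 0 were called by edgeR's quasi-likelihood test with Benjamini-Hochberg adjustment over all genes (adjusted p under 0.05), where 6 of 15519 genes, 0.0387%, were called in either direction. At an unadjusted p under 0.05 stood 3 members, Itgax, Tyrobp and Trem2, and 1816 genes. The median log2 fold change of the 9 was -0.25, beside -0.013 over all genes tested, of which 52.5% were negative. In whole tissue, fewer cells of a type and less RNA per cell cannot be told apart.

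Trem2, the receptor, had between 10.1 and 13 CPM in the 6 KO callosum libraries, with a median of 12.5 CPM, against 14.1, 15.2, 12.9, 17.1 and 16.2 CPM in the 5 WT callosum libraries. All but 1 KO library lay below every WT library, and the groups overlapped only by that library. The means were 12 ± 1.11 CPM in KO callosum and 15.1 ± 1.67 CPM in WT callosum, a log2 fold change of -0.34 (SE 0.10, edgeR adjusted p = 0.321). Tyrobp, which carries the activating motif for Trem2 and other receptors, had between 8.54 and 10.9 CPM in KO callosum, with a median of 10.2 CPM, against 13.6, 14.4, 9.98, 13.2 and 16.1 CPM in WT callosum. Here 3 of the 6 KO libraries lay below every WT library, and the low WT library was the only one within the KO range. The log2 fold change of Tyrobp was -0.45 (SE 0.13, edgeR adjusted p = 0.283).

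Itgax was rare in the callosum, with 6 to 18 counts per KO library and 18 to 34 per WT library. Its level ran from 0.339 to 0.920 CPM in KO callosum, with a median of 0.489 CPM, against 1.44, 1.23, 0.950, 0.695 and 1.41 CPM in WT callosum. In 5 of the 6 KO libraries Itgax was below every WT library. Its log2 fold change of -1.08 (SE 0.30, edgeR adjusted p = 0.278) was the largest among the 9 members tested. Clec7a, a pattern receptor for fungal glucans that signals through Syk, ran from 0.566 to 1.86 CPM in KO callosum, with a median of 0.928 CPM, against 2.53, 1.79, 1.35, 0.927 and 1.94 CPM in WT callosum. Clec7a was lower than every WT library in 3 of 6 KO libraries, and the log2 fold change was -0.69 (SE 0.33, edgeR adjusted p = 0.443).

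Lpl went the other way, with 10.9 to 20.2 CPM in KO callosum, a median of 15.8 CPM, against 13.2, 9.94, 16.3, 10.5 and 10.6 CPM in WT callosum. Of the KO libraries, 3 lay above every WT library and the rest were within the WT range (log2 fold change 0.37, SE 0.18, edgeR adjusted p = 0.456). The 4 remaining tested members differed by less than the standard error: Spp1 stood at -0.25 (SE 0.31), Gpnmb at -0.19 (SE 0.21), Cd68 at -0.12 (SE 0.14) and Axl at -0.08 (SE 0.09) on the log2 scale, with edgeR adjusted p-values between 0.727 and 0.752. Cst7 did not pass the low-count filter in callosum: it had 0 to 9 counts in KO libraries and 4 to 13 in WT libraries. The lowest value, 0 counts in 1 KO library, does not show that the gene was off.

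**Figure D1:**
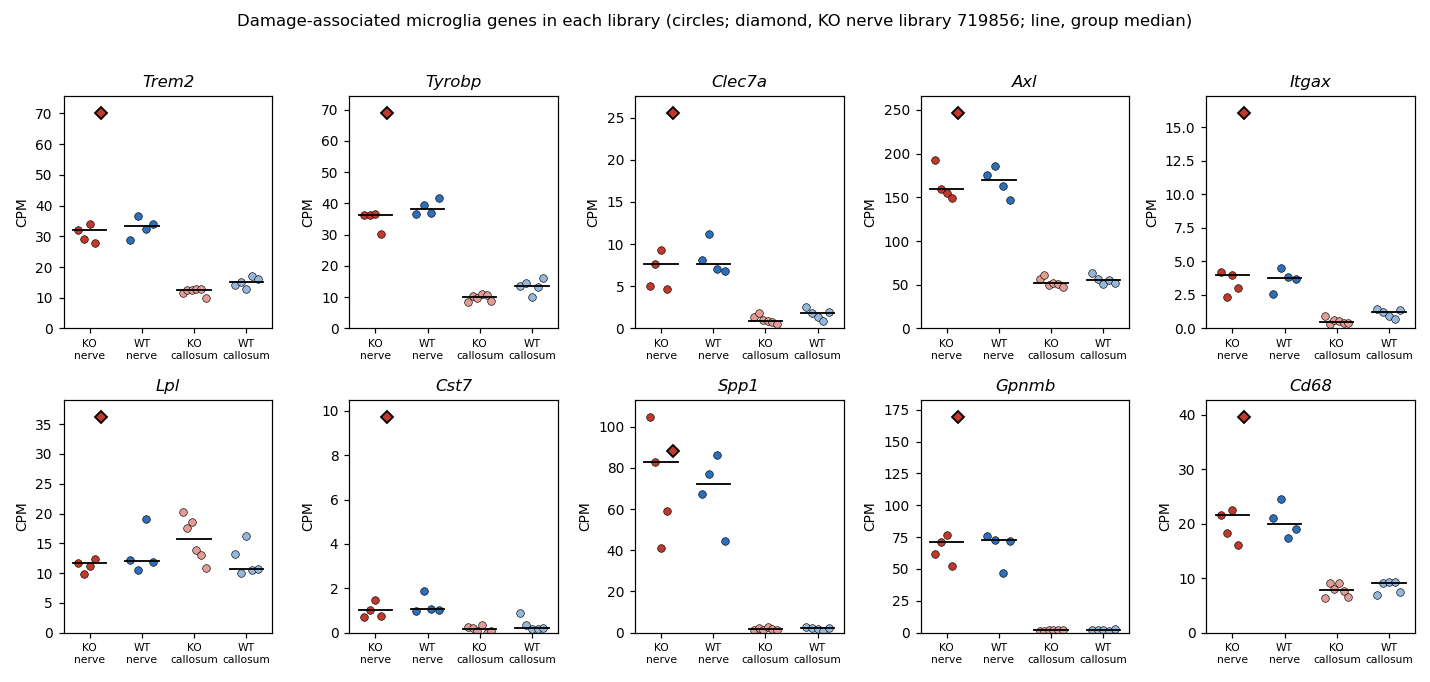
Level of each of the 10 genes in CPM (y axes, linear, from 0) in every library of KO optic nerve, WT optic nerve, KO corpus callosum and WT corpus callosum; the line is the group median and the diamond is KO nerve library KO_ON_719856. The nerve lies far above the callosum for Spp1 and Gpnmb, and the diamond is the highest nerve value for 9 of 10 genes.

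Lower mean levels in KO callosum were not limited to the members. Of the 20 homeostatic microglia genes, all 20 had negative log2 fold changes, with a median of -0.33, 14 of them at an unadjusted p under 0.05 and 0 called. Examples are Olfml3 at -0.48 (SE 0.10), C1qa, a complement subunit, at -0.47 (SE 0.11), Itgam, the integrin CD11b, at -0.39 (SE 0.09) and Csf1r, the receptor that microglia need to survive, at -0.35 (SE 0.09). Their summed level ran from 616 to 784 CPM in KO callosum, against 782 to 973 CPM in WT callosum. Among 21 tested genes of a wider damage-associated list, 19 were negative (median -0.35, 0 called), including the oxidase subunit Cybb at -1.01 (SE 0.29), the growth factor Csf1 at -0.53 (SE 0.11) and the lysosomal protease Ctss at -0.52 (SE 0.12). Among 16 tested genes of Trem2 and Tyrobp signalling, 15 were negative (median -0.23, 0 called), including Spi1, which encodes PU.1, at -0.55 (SE 0.15), the adaptor Lat2 at -0.52 (SE 0.20) and the phospholipase Plcg2 at -0.36 (SE 0.15).

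Other cell types moved beside them. The 12 myelin genes were all negative in KO callosum (median -0.55, 10 at an unadjusted p under 0.05, 0 called), with summed levels of 35700 to 69600 CPM in KO callosum and 56400 to 94400 CPM in WT callosum. Oligodendrocyte precursor genes were negative for 8 of 8 (median -0.25) and astrocyte genes for 8 of 9 (median -0.14). Fibroblast and meningeal genes were negative for 9 of 10 (median -0.21) and endothelial genes for 5 of 8 (median -0.03). In each of these lists 0 genes were called. The 11 tested neuronal genes were all positive (median 0.65, 0 called), with summed levels of 1480 to 5820 CPM in KO callosum and 1270 to 4010 CPM in WT callosum. With the mean neuronal level as a covariate, the log2 fold changes of Itgax, Tyrobp and Trem2 were -1.11 (SE 0.35), -0.41 (SE 0.14) and -0.31 (SE 0.12). With the mean homeostatic microglia level as a covariate they were -0.97 (SE 0.69), 0.05 (SE 0.22) and -0.002 (SE 0.20), with edgeR adjusted p-values between 0.928 and 0.998.

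The test decided the call in callosum. With limma-voom and sample quality weights, 3 members were called and all 3 were lower in KO callosum, among 2786 of 15519 genes, 18.0%, called in either direction. These were Tyrobp (log2 fold change -0.45, SE 0.11, limma adjusted p = 0.0234), Itgax (-0.93, SE 0.26, limma adjusted p = 0.0337) and Trem2 (-0.35, SE 0.10, limma adjusted p = 0.034). DESeq2 called 0 of the 9, among 174 of 15519 genes, 1.12%.

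**Figure D2:**
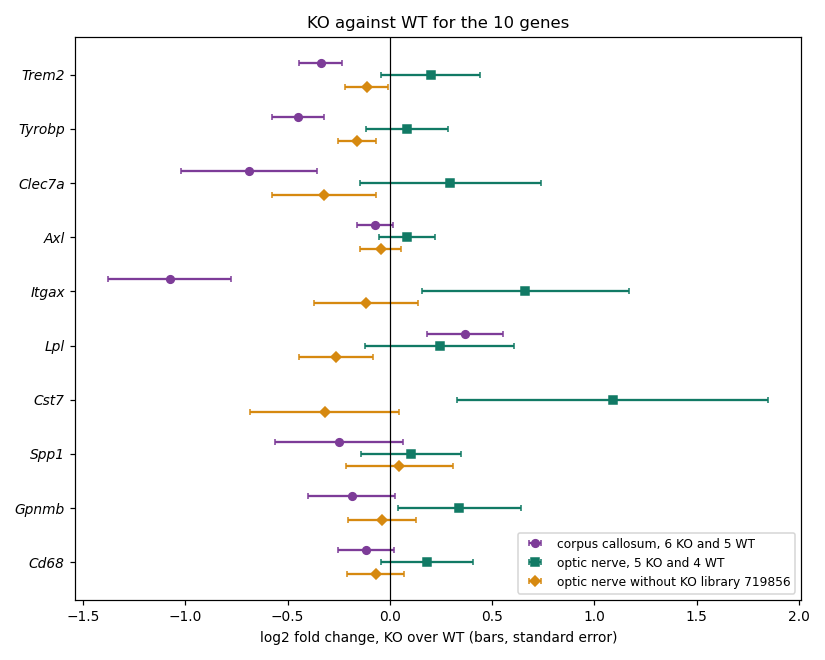
Log2 fold change of KO over WT (x axis; bars, SE) for each gene (y axis) in corpus callosum, in optic nerve, and in optic nerve without KO library KO_ON_719856. Without that library 9 of the 10 nerve values lie below 0, against 0 of 10 with it; Cst7 was not tested in callosum.

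In the optic nerve, the 10 members had higher mean levels in KO than in WT nerves, but for 9 of the 10 that direction came from 1 library. All 10 log2 fold changes were positive, with a median of 0.22, and 0 members were called, where 2 of 15556 genes, 0.0129%, were called by the same edgeR test and 852 genes and 0 members had an unadjusted p under 0.05. Without KO nerve library KO_ON_719856, 9 of 10 were negative, with a median of -0.11, and 0 were called, where 2 of 15472 genes, 0.0129%, were called and 649 genes and 0 members had an unadjusted p under 0.05. Over all genes tested the median was 0.012 with that library and 0.005 without it, and 47.2% and 48.5% were negative. Without it, 17 of 20 homeostatic microglia genes were negative as well. DESeq2 and limma-voom also called 0 members with either set of libraries, and KO and WT nerves overlapped for all 10 members, where 319 of 15556 genes, 2.05%, had no overlap in either direction.

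Trem2 had 32.1, 29, 34.1, 27.7 and, in library KO_ON_719856, 70.1 CPM in KO nerve, against 28.9, 36.7, 32.4 and 34.0 CPM in WT nerve. Of the other 4 KO nerves 3 lay within the WT range and 1 below it, and only library KO_ON_719856 stood above it. The log2 fold change was 0.20 (SE 0.24, edgeR adjusted p = 0.901) with it and -0.11 (SE 0.10, edgeR adjusted p = 0.976) without it. Tyrobp had 36.4, 36.2, 36.6, 30.2 and, in library KO_ON_719856, 68.9 CPM in KO nerve, against 36.5, 39.6, 36.9 and 41.8 CPM in WT nerve. Of the other 4 KO libraries, 3 were below every WT nerve, and the log2 fold change was 0.08 (SE 0.20, edgeR adjusted p = 0.953) with library KO_ON_719856 and -0.16 (SE 0.09, edgeR adjusted p = 0.976) without it.

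The same library carried the largest member differences of the nerve. Cst7 had 0.722, 1.03, 1.49, 0.731 and, in library KO_ON_719856, 9.71 CPM in KO nerve, against 0.959, 1.88, 1.07 and 1.04 CPM in WT nerve. Its log2 fold change was 1.09 (SE 0.76, edgeR adjusted p = 0.845) with that library and -0.32 (SE 0.37, edgeR adjusted p = 0.976) without it. Itgax had 4.17, 2.31, 3.96, 3.03 and, in library KO_ON_719856, 16.1 CPM in KO nerve, against 2.53, 4.47, 3.86 and 3.65 CPM in WT nerve, and moved between 0.66 (SE 0.51) with it and -0.12 (SE 0.25) without it. Lpl, Gpnmb, Clec7a, Cd68 and Axl likewise turned negative, to -0.26, -0.04, -0.32, -0.07 and -0.05, where they had been 0.24, 0.34, 0.30, 0.18 and 0.08 with all libraries. Spp1 was the exception, at 0.11 (SE 0.24) with library KO_ON_719856 and 0.05 (SE 0.26) without it. Its level was 104, 82.7, 41.2, 59.0 and 88.3 CPM in KO nerve, library KO_ON_719856 last, against 67.2, 77.1, 86.3 and 44.5 CPM in WT nerve, so that both genotypes held low and high nerves.

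KO nerve library KO_ON_719856 was the highest of the 9 nerve libraries for 9 of the 10 members, all but Spp1, as it was for 3137 of 15158 genes, 20.7%, with a median of at least 0.5 CPM. For 8 of the 10 it stood at least 1.5-fold above each of the other 8 nerve libraries, where 300 of the 15158 genes, 1.98%, did so. Relative to the median of the other 8 libraries, Cst7 was 9.38-fold, Itgax 4.27-fold, Clec7a 3.46-fold and Lpl 3.07-fold. Gpnmb was 2.36-fold, Trem2 2.18-fold, Cd68 1.98-fold, Tyrobp 1.88-fold, Axl 1.53-fold and Spp1 1.23-fold. The median of these 10 ratios was 2.27, beside 1.03 over all genes. These ratios describe 1 library and carry no replicate check.

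The wider lists show which microglial genes were high in that library. Of 23 other damage-associated genes at 0.5 CPM or more, 18 were highest in it, beside the 20.7% of all genes, and 7 were at least 1.5-fold above every other nerve library, with a median ratio of 1.43. Lgals3, which encodes galectin-3, reached 125 CPM against a median of 30.5 CPM in the other 8, and Apoe, the main lipid carrier of the brain, 11300 CPM against 5090 CPM. Of the 20 homeostatic genes, 5 were at least 1.5-fold above every other nerve library, with a median ratio of 1.19. Those 5 were Fcrls, Aif1 and the complement subunits C1qa, C1qb and C1qc, named after their values were seen. P2ry12, the purine receptor of surveying microglia, was the lowest of the 9 nerves there at 33.2 CPM, against 33.3 to 59.7 CPM in the other 8. Fibroblast genes and endothelial genes had 0 members at that mark, and neither did border macrophage genes or the myelin genes, whose median ratio was 0.82. Astrocyte genes had 0 members at that mark as well, but 5 of 9 were highest in this library, with a median ratio of 1.3, among them Gfap, the astrocyte filament, at 8930 CPM against 5830 to 8170 CPM and the glutamate transporter Slc1a3 at 787 CPM against 470 to 582 CPM.

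Retinal genes were high in the same library. The 6 photoreceptor genes summed to 75.2 CPM in KO nerve library KO_ON_719856, against 8.12 to 12.7 CPM in the other 8 nerve libraries, and each of the 6 was highest in it. Summed neuronal genes were 357 CPM, against 129 to 316 CPM, with a median ratio of 1.6, and single neuronal genes stood further apart: the synaptic vesicle protein gene Syt1 had 60.5 CPM against 1.04 to 19.3 CPM, and the vesicular glutamate transporter gene Slc17a7 had 53.6 CPM against 0.0802 to 16.3 CPM. These 2 were named after their values were seen. Of the 10 neuronal genes with a median of at least 0.5 CPM, which leaves out Slc17a7, 3 were highest in this library. Over all genes that share was 20.7%. Map2, for example, had 83.8 CPM in it, against 76.6 to 134 CPM in the other 8. The summed pigment genes were 5.48 CPM, within the 1.67 to 5.48 CPM of the others. With the mean neuronal level as a covariate, the KO against WT nerve values of Trem2, Tyrobp and Itgax were -0.03 (SE 0.27), -0.058 (SE 0.23) and -0.024 (SE 0.57) on the log2 scale. Lpl (-0.275) and Clec7a (-0.044) were negative too. Gpnmb (0.242), Spp1 (0.119), Cd68 (0.108), Axl (0.065) and Cst7 (0.003) were positive. With the mean homeostatic microglia level as the covariate, every member was positive, from 0.097 (SE 0.26) for Spp1 to 0.789 (SE 0.34) for Cst7. The part of retinal tissue or astrocytes in the levels of the members in that library was not tested. Callosum library KO_CCg_719856, which has the same number and genotype, was the lowest of the 11 callosum libraries for Trem2 (10.1 CPM), Clec7a (0.566 CPM) and Axl (47.5 CPM), and second lowest for Tyrobp, Itgax, Spp1 and Cd68. Cst7 and Lpl were further up the order, and Gpnmb, at 2.39 CPM, was among the 3 highest. Low levels in KO_CCg_719856 were not limited to the members. It was also the lowest callosum library for summed homeostatic microglia genes (616 CPM) and summed myelin genes (35700 CPM). For summed neuronal genes it was the highest (5820 CPM). How many of all genes were lowest in it was not counted.

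**Figure D3:**
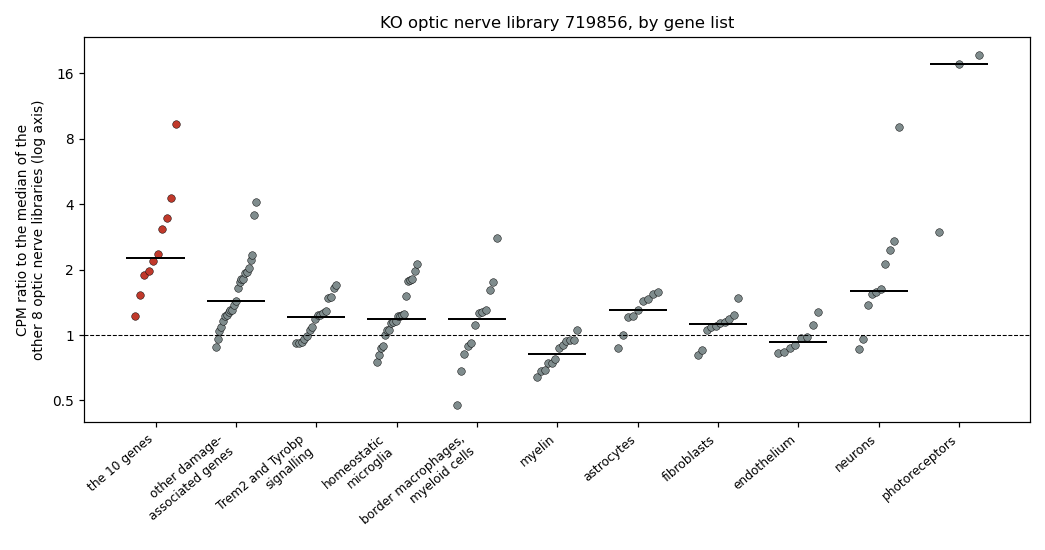
Ratio of the CPM in KO optic nerve library KO_ON_719856 to the median of the other 8 nerve libraries (y axis, log scale) for genes with a median of at least 0.5 CPM, by gene list; lines are list medians. The 10 genes have a median of 2.27, homeostatic microglia 1.19 and myelin 0.82, and the photoreceptor genes lie above 1.

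Whether KO and WT differed by another amount in the nerve than in the callosum was tested as an interaction over all 20 libraries. In that test 0 members and 0 of 16440 genes, 0%, were called, with 2 members and 1123 genes at an unadjusted p under 0.05. Without KO nerve library KO_ON_719856 the counts were 0 members and 0 of 16399 genes, 0%, with 2 members and 945 genes at an unadjusted p under 0.05. With all libraries the 2 members were Itgax, at 1.76 (SE 0.63), and Tyrobp, at 0.55 (SE 0.25), on the log2 scale, each with an edgeR adjusted p of 0.725, and the difference of Cst7 was larger but less certain, at 2.08 (SE 1.12, edgeR adjusted p = 0.74). Without KO_ON_719856 the 2 members were Itgax, at 0.96 (SE 0.40), and Lpl, at -0.63 (SE 0.28), each with an edgeR adjusted p of 0.813, while Tyrobp stood at 0.29 (SE 0.16), Trem2 at 0.23 (SE 0.14) and Cst7 at 0.65 (SE 0.80). Of the 10 members 9 were positive, Lpl being the exception, and DESeq2 and limma-voom called 0 members too. The median was 0.54 with library KO_ON_719856 and 0.25 without it, beside 0.028 and 0.021 over all genes tested. Of all genes, 46.0% were negative with that library and 47.0% without it. With all libraries, 17 of 20 homeostatic microglia genes and 12 of 12 myelin genes were positive too.

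Between the tissues, most members differed. In KO mice 9 of 10 members were higher in optic nerve than in corpus callosum, where 2445 of 16440 genes, 14.9%, were called higher in nerve (edgeR adjusted p under 0.05 and a log2 fold change of at least 1). The same count, 9 of 10, was called without KO nerve library KO_ON_719856, where 2373 of 16399 genes, 14.5%, were called higher. In WT mice 8 of 10 were called, where 2135 of 16440 genes, 13%, were called higher. Nerve and callosum libraries did not overlap for 9 of 10 members in KO mice and for the same number in WT mice, with Lpl overlapping in both. Of all 16440 genes, every nerve library lay above every callosum library for 23.2% in KO mice and 22.1% in WT mice.

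Spp1 and Gpnmb showed the widest gap. Spp1 had 41.2 to 104 CPM in the 5 KO nerves, against 1.09 to 2.56 CPM in KO callosum, and its 4 values of 44.5 to 86.3 CPM in WT nerve stood against 2.88, 2.46, 1.70, 0.888 and 2.15 CPM in WT callosum. Every nerve library lay far above every callosum library. The log2 fold change of Spp1 was 5.47 (SE 0.30) in KO mice and 5.13 (SE 0.33) in WT mice. Gpnmb had 61.9, 70.9, 76.8, 52.4 and 169 CPM in KO nerve, against 1.38 to 2.40 CPM in KO callosum. In WT nerve Gpnmb had 75.7, 72.7, 46.8 and 72.3 CPM, against 2.19, 2.05, 2.34, 1.47 and 3.02 CPM in WT callosum. Its log2 fold change was 5.45 (SE 0.29) in KO mice, 5.05 (SE 0.19) in KO mice without nerve library KO_ON_719856, and 4.92 (SE 0.31) in WT mice.

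The receptors Clec7a, Axl and Trem2 and the adaptor Tyrobp differed less. Clec7a was at 3.31 (SE 0.41) in KO mice, 2.67 (SE 0.31) in KO mice without library KO_ON_719856, and 2.30 (SE 0.44) in WT mice on the log2 scale, with 5.05, 7.65, 9.33, 4.70 and 25.5 CPM in KO nerve and 8.17, 11.2, 7.10 and 6.78 CPM in WT nerve. Tyrobp was at 2.07 (SE 0.17) in KO and 1.52 (SE 0.18) in WT mice, Axl at 1.76 (SE 0.12) and 1.59 (SE 0.13), and Trem2 at 1.68 (SE 0.18) and 1.13 (SE 0.20). Axl had 149 to 246 CPM in KO nerve and 146 to 186 CPM in WT nerve, against 47.5 to 60.8 CPM in KO callosum and 51.0 to 63.4 CPM in WT callosum. Cd68 was at 1.59 (SE 0.19) in KO and 1.28 (SE 0.20) in WT mice. Itgax was at 3.44 (SE 0.44) in KO mice, 2.64 (SE 0.28) in KO mice without nerve library KO_ON_719856, and 1.67 (SE 0.45) in WT mice.

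Cst7 and Lpl were the members without a call in at least 1 genotype. Cst7 was at 3.98 (SE 0.77) in KO mice and 2.54 (SE 0.57) in KO mice without nerve library KO_ON_719856, both called, and at 1.89 (SE 0.79, edgeR adjusted p = 0.0532) in WT mice. The WT value was called without WT callosum library WT_CCg_28, which held 0.890 CPM where the other 4 WT callosum libraries held 0.154 to 0.359 CPM, at 2.49 (SE 0.85, edgeR adjusted p = 0.0193). It was also called without KO nerve library KO_ON_719856, which shares the estimate of the spread, at 1.89 (SE 0.57, edgeR adjusted p = 0.00884). Lpl had 11.7, 9.79, 11.3, 12.3 and 36.1 CPM in KO nerve, against 10.9 to 20.2 CPM in KO callosum, and 12.1, 10.5, 19.1 and 11.9 CPM in WT nerve. Its log2 fold change was 0.04 (SE 0.29) in KO mice and 0.15 (SE 0.32) in WT mice, and -0.48 (SE 0.19, edgeR adjusted p = 0.0401) in KO mice without nerve library KO_ON_719856, which is short of the 1 unit asked for.

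**Figure D4:**
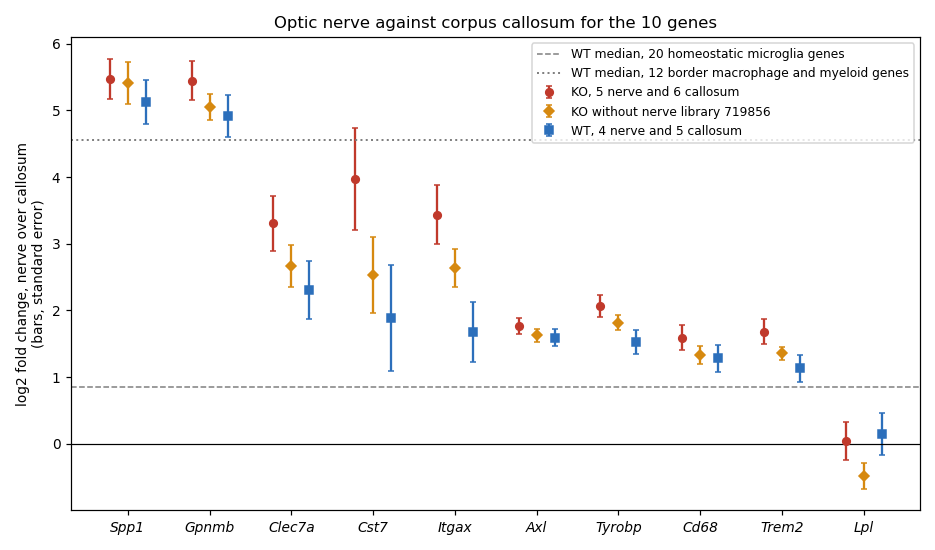
Log2 fold change of optic nerve over corpus callosum (y axis; bars, SE) for each gene (x axis, ordered by the WT value) in KO mice, in KO mice without nerve library KO_ON_719856, and in WT mice. Spp1 and Gpnmb lie above the WT median of 12 border macrophage and myeloid genes (4.56, dotted), Lpl lies below the WT median of 20 homeostatic microglia genes (0.85, dashed), and the rest lie between the lines.

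Markers of several cell types differed between the tissues in the same direction. Homeostatic microglia genes had a median of 1.17 in KO mice (12 of 20 called higher in nerve) and 0.85 in WT mice (9 of 20 called higher), with summed levels of 1500 to 2360 CPM in KO nerve against 616 to 784 CPM in KO callosum, and 1650 to 1910 CPM in WT nerve against 782 to 973 CPM in WT callosum. Border macrophage and blood myeloid genes had a median of 4.89 in KO mice and 4.56 in WT mice, with 12 of 12 called in both, and Lyve1, a receptor of border macrophages, was at 6.80 (SE 0.46) in WT mice. Their summed level was 73.3 to 122 CPM in KO nerve against 4.19 to 7.09 CPM in KO callosum, and 93.9 to 119 CPM in WT nerve against 5.15 to 6.76 CPM in WT callosum. Fibroblast and meningeal genes had a median of 6.22 in KO mice and 6.03 in WT mice, with 10 of 10 called in both. The part of these cells in the nerve levels of the members was not tested. Of the other damage-associated genes, 18 of 24 were called higher in KO nerve (median 1.83) and 14 of 24 in WT nerve (median 1.19), including Lyz2, the macrophage lysozyme, at 4.66 (SE 0.20) in KO mice and 4.01 (SE 0.21) in WT mice. Neuronal genes went the other way, with 11 of 11 tested called lower in both genotypes.

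Divided by merged exon length, Tyrobp had the highest median level in nerve, at 54.5 CPM per kb in KO and 57.3 CPM per kb in WT, followed by Spp1 at 50.2 CPM per kb in KO and 43.8 CPM per kb in WT, while Itgax was lowest at 0.825 and 0.782 CPM per kb. In callosum Tyrobp led at 15.3 CPM per kb in KO and 20.4 CPM per kb in WT, while the lowest was Itgax at 0.102 CPM per kb in KO callosum and Cst7 at 0.21 CPM per kb in WT callosum. Merged exons hold all annotated transcripts of a gene, so a gene whose main transcript is much shorter than its merged exons is set too low on this scale. Merged lengths ran from 667 bases for Tyrobp to 10478 bases for Lpl, with Trem2 at 4946 bases. Which transcripts were present was not tested.

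The genes whose levels followed the members most closely over the 11 callosum libraries, after the genotype means were taken off, were 0610009B22Rik (Pearson r = 0.943), Snrpa1 (0.914), Fopnl (0.904), Cnot8 (0.887) and Ints12 (0.883). The likeness is to the mean log2 CPM of 9 members, 14414 genes were ranked, and the libraries share their depth and dissection, so these values are a description with no test.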

How the data were processed

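The authors' deposited table gives estimated counts (expected counts, not whole numbers; from kallisto, per the name of the table) per gene for 20 libraries of a stranded mRNA kit, with no scaling. The submitters' processing notes name the build mm10; no label or header gives a quantifier version or an annotation. Of 46517 genes, 46005 had a symbol by their Ensembl identifier. Counts were rounded, filtered with filterByExpr (minimum count 10, total 15), TMM-scaled and tested with edgeR 4.0.16 (glmQLFit, glmQLFTest) in R 4.3.3, each tissue apart for KO against WT and all 20 libraries in 4 groups for the tissue contrasts and the interaction. P-values were Benjamini-Hochberg adjusted over all genes tested, and calls needed an adjusted p under 0.05, between tissues also a log2 fold change of at least 1. SEs come from the fold change and its F. The biological coefficient of variation was 23.7% in callosum and 20.2% in nerve.

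The 10 genes and all gene lists were chosen with earlier results of these data known. Named beside the members are, per list and comparison, members with the smallest p (up to 3, or 5 for homeostatic and other damage-associated genes), and the 5 genes of highest likeness. Alternatives were DESeq2 1.42.0, limma 3.58.1 (voom with quality weights), DESeq2 size factors, other filters (none, or 1 CPM), 1 fit of all libraries, marker covariates, number formats, replicate blocks and leaving out each library. The fits were tested on simulated data. No pair of libraries was identical (0 pairs).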

Additional observations from a re-analysis of the deposited data

Results flagged for a closer look

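In KO optic nerve library KO_ON_719856, 8 of the 10 genes stood apart from the other 4 KO nerves by Dixon's criterion for a group of 5. These were Trem2 at 70.1 CPM, Tyrobp at 68.9 CPM, Lpl at 36.1 CPM, Cst7 at 9.71 CPM, Itgax at 16.1 CPM, Gpnmb at 169 CPM, Clec7a at 25.5 CPM and Cd68 at 39.6 CPM. The summed homeostatic microglia genes, at 2360 CPM, and the summed photoreceptor genes, at 75.2 CPM, stood apart in the same library. Single values stood apart in WT groups too: Cst7 at 1.88 CPM in WT nerve library WT_ON_701297, Cst7 at 0.89 CPM in WT callosum library WT_CCg_28, and Gpnmb at 46.8 CPM in WT nerve library WT_ON_717652, which was low. In all, 13 of 56 groups of values were marked, 10 of them through library KO_ON_719856, where chance marks about 1 in 20 groups, and values of 1 library are not independent of each other.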

How the results depend on the processing

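Of 124 recomputed counts of called members, 123 were within 1.5 times the reported count; the exception was KO against WT in callosum, with 3 members called by limma-voom with sample quality weights, against 0 by edgeR. Over all genes in that comparison edgeR called 6, DESeq2 174 and limma-voom 2786, and in nerve edgeR called 2, DESeq2 35 and limma-voom 2. Of 1216 recomputed member fold changes, 1138 kept direction and call, 12 gained a call (the 3 in callosum and Cst7 between tissues in WT mice) and 66 changed sign; for every sign change below, the cause was not tested.

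In callosum, KO against WT, the homeostatic microglia covariate gave log2 values of 0.05 for Tyrobp, 0.86 for Spp1, 0.43 for Clec7a, 0.19 for Axl and 0.12 for Cd68. Callosum library names end in a short number (KO_CCg_27, KO_CCg_29, WT_CCg_28 and WT_CCg_30) or a long one. In nerve, the numbers of KO_ON_48038A7 and KO_ON_48118A4 hold a letter and all others are digits alone, so the letter format occurs in KO nerve alone. The libraries with long numbers alone gave 0.052 for Spp1, limma-voom 0.014 for Gpnmb, the neuronal covariate 0.031 for Axl, and the short numbers alone 0.008 for Axl. In nerve, KO against WT, limma-voom gave -0.039 for Trem2, -0.041 for Tyrobp, -0.148 for Cst7, -0.087 for Itgax, -0.241 for Clec7a, -0.029 for Axl and -0.069 for Cd68. There the neuronal covariate gave -0.03 for Trem2, -0.058 for Tyrobp, -0.275 for Lpl, -0.024 for Itgax and -0.044 for Clec7a, and the all-digit numbers alone gave -0.145 for Spp1.

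Leaving out 1 library at a time, the nerve values for KO against WT ran from -0.187 to 0.287 for Trem2, -0.163 to 0.167 for Tyrobp, -0.401 to 0.458 for Lpl, -0.51 to 1.37 for Cst7, -0.369 to 0.869 for Itgax and -0.238 to 0.253 for Spp1. They ran from -0.043 to 0.464 for Gpnmb, -0.44 to 0.475 for Clec7a, -0.115 to 0.136 for Axl and -0.193 to 0.28 for Cd68, where the lowest values include fits without library KO_ON_719856 by another tool or with the homeostatic covariate, chosen after seeing the data. Lpl between tissues ran from -0.479 to 0.181 in KO mice and -0.072 to 0.282 in WT mice, and its interaction from -0.628 to 0.116.

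The levels could not show whether sample numbers shared by KO callosum and KO nerve mark pairs of libraries. Deviations from the group means correlated at -0.14 to 0.076 between KO libraries with unequal numbers. For the 3 shared numbers they correlated at 0.018, -0.153 and 0.134, which is within, below and above that range. With the replicate block on these 3 numbers 9 members were called between tissues in KO mice; with a random replicate block the counts were 9 in KO mice, 9 in WT mice and 0 for the interaction, and Lpl in KO mice was at -0.181, against -0.311 by limma-voom without the block. Depth limits Itgax, Clec7a and Cst7 in callosum, where counts per library were low.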

Other observations

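In KO against WT nerve, 0 of 17 tested genes of Trem2 and Tyrobp signalling were called, 10 positive and 7 negative with a median of 0.04, and 0 of 20 homeostatic genes, 10 positive and 10 negative with a median of -0.004. The gene with the smallest p of each list was negative. Mertk, a receptor of the same family as Axl, was at -0.42 (SE 0.14, edgeR adjusted p = 0.845) for KO against WT nerve and at -0.48 (SE 0.14, edgeR adjusted p = 0.976) without KO nerve library KO_ON_719856. P2ry12, the homeostatic purine receptor, was at -0.40 (SE 0.13, edgeR adjusted p = 0.845) and at -0.34 (SE 0.13, edgeR adjusted p = 0.976) without that library. Between tissues in WT mice, Pros1, which encodes a ligand of Mertk, was higher in nerve at 2.46 (SE 0.18, edgeR adjusted p = 6.21e-10), and 8 of 17 tested genes of Trem2 and Tyrobp signalling were called higher in nerve, with a median of 0.91.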
